A study of Mus musculus with 90 samples.

Results

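Hlf, Mecom, Hoxa9, Meis1, Mllt3, Mycn, Myc, Fgd5 and Erg, a set of regulators of blood stem cells, were followed cell by cell in cultured stem cells of mice with and without Runx1. The 9 genes were taken by symbol from the deposited table, and all 9 were among its 35869 genes. Of these, 7 encode DNA-binding transcription factors (HLF, MECOM, HOXA9, MEIS1, MYCN, MYC and ERG), MLLT3 is a chromatin reader of the transcription elongation machinery, and FGD5 is an exchange factor for the small GTPase CDC42 that is used as a marker of stem cells. They do not form a single pathway, and they mark different sides of stem cell life. HOXA9 binds DNA together with MEIS1 and keeps immature blood cells dividing without maturing. HLF and MECOM are typical of the most immature cells and support their dormancy and long-term function. ERG belongs to the ETS family and holds the stem cell programme in place, and MLLT3 keeps stem cell genes active in culture. MYC and MYCN bind E-box sequences as dimers with MAX and drive ribosome production and growth, and stem cells can use either protein. RUNX1, the factor removed here, is itself a DNA-binding regulator that megakaryocytes, the platelet-forming cells, need to mature.

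The study asked what CD41-positive stem cells become when Runx1 is lost (CD41 is the product of Itga2b, an integrin gene of platelets). All mice carried RUNX1f/f, the floxed gene, and all received 4 injections of poly(I:C), which switches on the interferon-driven MxCre1 recombinase. The control mice (WT) were MxCre1-/- and the knockout mice (KO) were MxCre1+/-, so both had the floxed gene and the interferon stimulus, and the promoter of this recombinase also responds to interferon outside stem cells. CD41-positive stem cells were sorted from bone marrow 4 weeks after injection and cultured for 2 days. Megakaryocyte-like (MK) and other (NMK) cells were then selected for SMART-Seq libraries of single cells, a method that copies whole transcripts. Neither the ages of the mice nor the animal behind each cell is given in the sources used here. Values are TPM, a transcript abundance corrected for gene length, so levels can be compared between genes, and are scaled to a fixed total, so the depth of a library is unknown.

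The table without outliers held 33 of the 46 libraries in the full table, with 6 MK and 9 NMK cells of WT and 5 MK and 13 NMK cells of KO, and 44 of 90 labelled samples were not analysed here. Each library is 1 cell and no label ties cells to animals, so each group counts as 1 sample and no test was run. Differences are given as the difference in mean log2(TPM + 1) beside the pooled SD between cells, and a difference of 1 or more in size is counted as a call. Some libraries stood apart. In 2 KO NMK libraries, B1-1b and B1-2a, the mean log2(TPM + 1) of 15 housekeeping genes was under 6, against 8.64 or more in the other 31. In 2 KO MK libraries, B1-4 and 2, the platelet factor gene Pf4 was at 65.8 and 213.7 TPM, within the NMK range of 3 to 1453.1 TPM, while WT MK cells had 12512.8 TPM or more. These libraries went against the MK label, and the counts of members called are given with and without either pair, and single genes of the lists with all cells. The 5 WT MK libraries without a prefix in their title correlated with each other at 0.972 to 0.981 across genes, above the highest value of 0.956 among the other 518 pairs, so they may not be independent cells. Runx1 itself was at 8.9 to 47.5 TPM in KO MK cells, 7.6 to 22.2 TPM in WT MK cells, 0 to 41.5 TPM in KO NMK cells and 0 to 15.7 TPM in WT NMK cells. A value over the whole gene does not show whether the floxed part was deleted, so WT and KO mean only the label of a library. The number of genes above 0 was 14089 to 15252 in WT MK and 11896 to 14487 in KO MK cells, and 5475 to 11715 in WT NMK and 3011 to 10987 in KO NMK cells. Title prefix B1, whose meaning is not given in the sources used here, was carried by 1 MK and 0 NMK cells of WT and by 2 MK and 5 NMK cells of KO.

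Promoters are shown here for Hoxa9, Hlf and Mycn, the members that differed most between MK and NMK cells, and for Meis1 and Mllt3, those without overlap between KO and WT MK cells, as RefSeq sequence of GRCm38.p6, the build the labels call mm10. The lines hold the longest stretch of the 250 bases before the start site that lies outside annotated exons, from 5′ to 3′ on the strand of the gene, with matches in capitals to 4 motifs searched on both strands. These were TGTGGT, the core bound by RUNX factors, found in 14.0% of 32851 promoter windows of 250 bases, GATAA of GATA factors in 22.6%, CCGGAA of ETS factors in 12.0%, and the E-box CACGTG in 6.02%. In the sequences shown no match overlaps another.
Hoxa9, chr6:52227371-52227620, minus strand: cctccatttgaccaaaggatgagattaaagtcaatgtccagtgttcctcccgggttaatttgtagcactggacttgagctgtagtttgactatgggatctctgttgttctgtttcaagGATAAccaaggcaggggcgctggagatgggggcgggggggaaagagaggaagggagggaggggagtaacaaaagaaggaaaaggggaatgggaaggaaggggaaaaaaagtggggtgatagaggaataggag
Hlf, chr11:90390918-90391167, minus strand: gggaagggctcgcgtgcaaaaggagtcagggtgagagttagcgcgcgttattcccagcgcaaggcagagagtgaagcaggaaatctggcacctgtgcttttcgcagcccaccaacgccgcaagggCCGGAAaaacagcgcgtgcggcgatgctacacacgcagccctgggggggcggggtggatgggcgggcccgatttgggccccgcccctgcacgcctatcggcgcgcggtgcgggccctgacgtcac
Meis1, chr11:19018986-19019219, minus strand: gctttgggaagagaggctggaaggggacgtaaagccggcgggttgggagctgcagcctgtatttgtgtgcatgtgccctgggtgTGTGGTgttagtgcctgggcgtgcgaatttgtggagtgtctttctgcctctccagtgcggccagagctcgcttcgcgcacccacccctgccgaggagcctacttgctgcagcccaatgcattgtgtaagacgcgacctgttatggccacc
Mllt3, chr4:88033544-88033657, minus strand: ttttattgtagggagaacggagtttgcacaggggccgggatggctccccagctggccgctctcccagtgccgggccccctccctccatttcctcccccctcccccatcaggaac
Mycn, chr12:12941915-12942086, minus strand: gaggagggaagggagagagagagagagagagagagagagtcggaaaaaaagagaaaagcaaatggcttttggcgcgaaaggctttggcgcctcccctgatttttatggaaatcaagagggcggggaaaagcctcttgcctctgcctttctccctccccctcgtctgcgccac
The Hoxa9 window held 1 GATAA, the Hlf window 1 CCGGAA, and the Meis1 stretch 1 TGTGGT, with 1 CCGGAA in the exonic bases that are not shown. The Mycn window and that of Mllt3, at the upstream of its start sites in RefSeq, held none of the 4. At the shares above such matches are common, and they describe the letters only. RefSeq windows were found for 8 of the 9 members. Myc is named only.

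Hoxa9 lies at chr6:52223100-52231089 on the minus strand, in the Hoxa cluster, and its exons overlap the microRNA gene Mir196b on the same strand. Mycn lies at chr12:12936093-12941914 on the minus strand and Myc at chr15:61985391-61990374 on the plus strand. Hlf (chr11:90336536-90390895), Meis1 (chr11:18879817-19018985), Mllt3 (chr4:87769925-88033364), Mecom (chr3:29951296-30548008) and Erg (chr16:95359169-95586593) are on the minus strand and Fgd5 (chr6:91978878-92076004) is on the plus strand, all in GRCm38 with GENCODE M21 annotation, where all 9 are protein-coding. Exons of Mecom overlap the antisense gene Mecomos, and exons of Meis1 overlap the antisense gene Gm16140 and Gm37818, a gene on the same strand whose reads no strand setting would separate. Whether counting used the strand is not given in the sources used here, so reads of these overlapping genes cannot be told apart.

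NMK cells carried more of the set than MK cells by the median, with overlapping ranges. A WT NMK cell had 3 to 8 of the 9 genes at 1 TPM or more, with a median of 6, and a WT MK cell had 3 or 4, with a median of 4. KO NMK cells had 1 to 9, with a median of 5, and KO MK cells 3 to 9, with a median of 4. All 9 were found in 2 cells, both KO cells of the B1 libraries, KO NMK B1-5 and KO MK B1-4, the latter a library with low Pf4. The cell with 1 of the 9 was KO NMK B1-2a, a library of low housekeeping score, whose 1 gene was Mllt3. The plot of the 33 cells beside Pf4 shows Hoxa9 and Hlf at or near 0 in the Pf4-rich cells. Mycn was high in every one of them and patchy in NMK cells. KO MK 1, a library left out by the authors with Pf4 at 43254.3 TPM, had Mycn at 0.1 TPM.

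**Figure D1:**
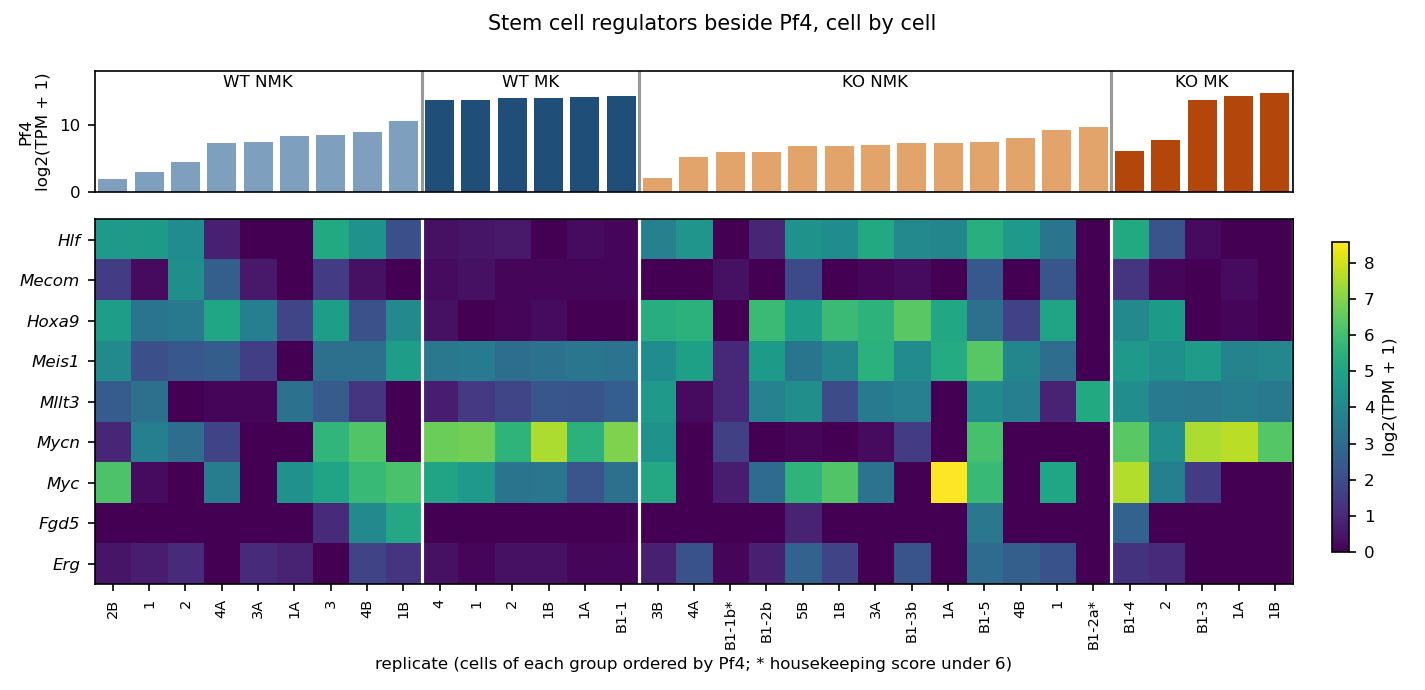
Level of the 9 regulators in each of the 33 cells (colour, log2(TPM + 1)) below Pf4 in the same cells (bars, log2(TPM + 1)), with the cells of each group ordered by Pf4 and labelled by replicate. Hoxa9 is dark in all 6 WT MK cells and in the 3 KO MK cells with high Pf4, while KO MK B1-4 and 2, the pair with low Pf4, carry Hoxa9 at 15.5 and 24.8 TPM.

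Hoxa9, the HOX factor of immature blood cells, separated the WT groups completely. WT NMK cells had 2.5 to 32.5 TPM (median 12.2) and WT MK cells 0 to 0.3 TPM (median 0.05). All 9 WT NMK cells (exact Clopper-Pearson 95% interval 66.4% to 100%) and 0 of 6 WT MK cells (0% to 45.9%) were at 1 TPM or more, so the groups did not overlap. KO NMK cells had 0 to 82.4 TPM (median 34.4), and the 2 cells at 0 were those of low housekeeping score. The other 11 ranged from 2.2 to 82.4 TPM (median 40.1). In KO MK cells Hoxa9 was at 0 in 1B and B1-3, 0.1 TPM in 1A, 15.5 TPM in B1-4 and 24.8 TPM in 2, so it was present only in the pair with low Pf4. The order of the means of log2(TPM + 1), each with its SD between cells, was KO NMK at 4.18 ± 2.23 (SD, n = 13), WT NMK at 3.69 ± 1.16 (SD, n = 9), KO MK at 1.77 ± 2.38 (SD, n = 5) and WT MK at 0.13 ± 0.16 (SD, n = 6). Neighbours in this order lay within the larger of their SDs, while WT NMK and WT MK lay apart by more than either.

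Meis1, the homeobox partner of HOXA9, did not follow it. It was present in all 6 WT MK cells, at 7.5 to 10.8 TPM (median 9.05), and in 8 of 9 WT NMK cells, at 0 to 26.4 TPM (median 4.8). KO MK cells had 13.4 TPM in 1A, 14.6 TPM in 1B, 18.7 TPM in 2, 23.9 TPM in B1-4 and 25 TPM in B1-3, all above the highest WT MK cell. KO NMK cells had 0 to 80.9 TPM (median 16.6), and 7.3 to 80.9 TPM (median 17.1) without the 2 libraries of low housekeeping score. The means were 4.29 ± 0.38 (SD, n = 5) in KO MK, 3.87 ± 1.75 (SD, n = 13) in KO NMK, 3.33 ± 0.16 (SD, n = 6) in WT MK and 2.63 ± 1.40 (SD, n = 9) in WT NMK cells. Neighbours in this order lay within the larger of their SDs. The 6 WT MK cells and the 3 KO MK cells with high Pf4 held Meis1 with Hoxa9 at 0.3 TPM or less, while the KO MK pair with low Pf4 had both genes. Among the KO MK libraries that the authors left out, Meis1 was at 0 in B1-1b, 0.7 TPM in B1-1a, 1.7 TPM in B1-1 and 17.5 TPM in 1, the first 2 with housekeeping scores of 2.92 and 5.19.

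Hlf, a PAR bZIP factor of the most immature stem cells, ranged widely within NMK cells of either genotype. In WT NMK it was at 16.9 to 36.4 TPM in 5 cells (1, 2, 3, 2B and 4B), at 3.3 TPM in 1B, at 0.7 TPM in 4A and at 0 in 1A and 3A. In KO NMK it reached 8.8 to 42.1 TPM in 10 of 13 cells, with 0.9 TPM in B1-2b and 0 in the 2 libraries of low housekeeping score. Without those libraries 10 of 11 KO NMK cells (90.9%, exact interval 58.7% to 99.8%) and 6 of 9 WT NMK cells (66.7%, exact interval 29.9% to 92.5%) were at 1 TPM or more, and the intervals overlap widely. WT MK cells had 0 to 0.5 TPM (median 0.25). KO MK cells had 0 in 1B and 1A, 0.2 TPM in B1-3, 3.6 TPM in 2 and 36 TPM in B1-4, so again only the pair with low Pf4 carried it. The means were 3.40 ± 1.86 (SD, n = 13) in KO NMK, 2.89 ± 2.16 (SD, n = 9) in WT NMK, 1.53 ± 2.25 (SD, n = 5) in KO MK and 0.31 ± 0.22 (SD, n = 6) in WT MK cells, and neighbours lay within the larger SD.

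Mecom, the zinc finger factor EVI1, was low throughout. It reached 1 TPM in 4 of 9 WT NMK cells, with 18.2 TPM in cell 2, 5 TPM in 4A, 1.9 TPM in 2B and 1.8 TPM in 3, and in 3 of 13 KO NMK cells, at 2.8 to 4.2 TPM. WT MK cells had 0.1 to 0.3 TPM, and KO MK cells had at most 0.2 TPM, apart from 1.5 TPM in B1-4. The means were 1.23 ± 1.43 (SD, n = 9) in WT NMK, 0.57 ± 0.94 (SD, n = 13) in KO NMK, 0.34 ± 0.56 (SD, n = 5) in KO MK and 0.20 ± 0.10 (SD, n = 6) in WT MK cells. All of these lay within the spread of the WT NMK cells.

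Mllt3, which binds acylated histones and recruits elongation factors and the methyltransferase DOT1L, was patchy in WT NMK cells and lower in WT MK than in KO MK cells. WT MK cells had 0.6 to 4.9 TPM (median 3.1) and WT NMK cells 0 to 8.3 TPM (median 1.5). KO MK cells had 9.8 TPM in B1-3, 10 TPM in 1B, 11 TPM in 2, 11.5 TPM in 1A and 17.4 TPM in B1-4, so every KO MK cell was above every WT cell of either kind among the 33. Among the left-out libraries 1 WT MK cell, B1-1b with a housekeeping score of 4.76, reached 10.6 TPM, and the KO MK cells had 1 TPM in B1-1b, 3.8 TPM in B1-1a, 5.5 TPM in B1-1 and 21.4 TPM in 1. KO NMK cells spread from 0 to 36.1 TPM (median 12), and the highest value came from B1-2a, a library of low housekeeping score. Without that pair they ranged from 0 to 23.2 TPM (median 12), with 7 of 11 at 10 TPM or more, a level no WT cell among the 33 reached. The means were 3.66 ± 0.31 (SD, n = 5) in KO MK, 2.85 ± 1.78 (SD, n = 13) in KO NMK, 1.83 ± 0.69 (SD, n = 6) in WT MK and 1.43 ± 1.40 (SD, n = 9) in WT NMK cells, and neighbours lay within the larger SD.

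**Figure D2:**
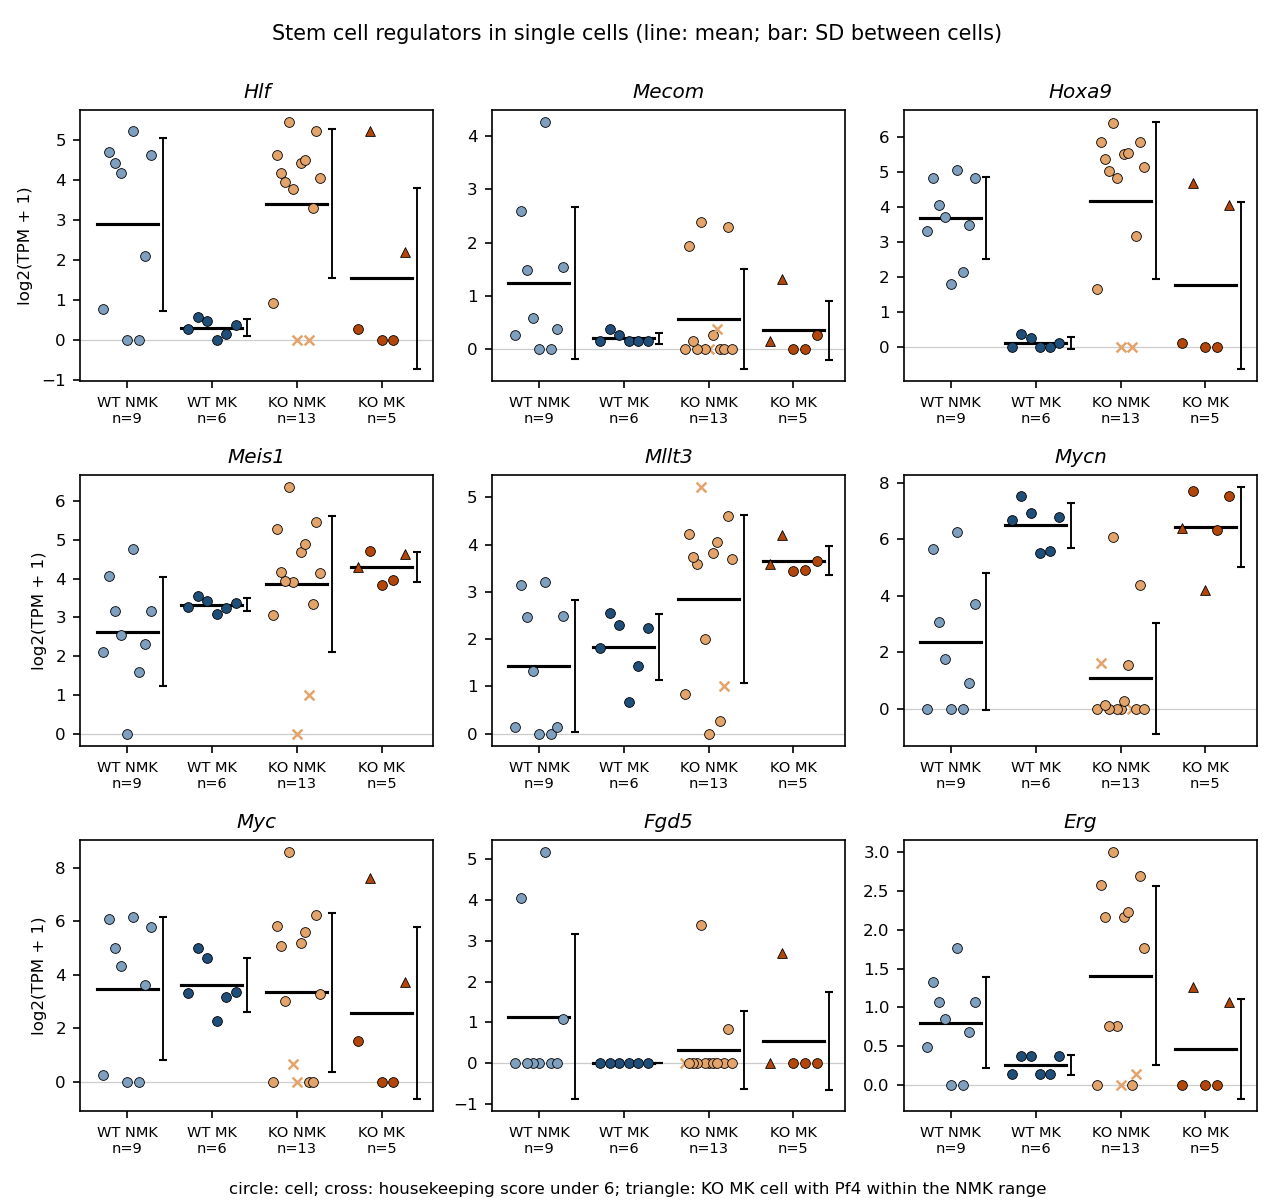
log2(TPM + 1) of each regulator in every cell of the 4 groups, with the group mean (line) and the SD between cells (bar at the right). Crosses are the 2 KO NMK libraries with a housekeeping score under 6, and triangles are the 2 KO MK libraries with Pf4 within the NMK range. Hoxa9 and Hlf lie near 0 in WT MK cells, Mycn is high in both MK groups, and Mllt3 and Meis1 of all KO MK cells lie above all WT MK cells.

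Mycn had the highest mean TPM of the set in both MK groups, 100.4 in WT and 114.4 in KO. WT MK cells had 44.7 to 181.7 TPM (median 104.1). KO MK cells had 17.3 TPM in 2, 78.3 TPM in 1B, 83.6 TPM in B1-4, 183.8 TPM in B1-3 and 208.9 TPM in 1A. WT NMK cells had 0 to 74.7 TPM (median 2.4), with the 2 highest, 74.7 TPM in 4B and 48.8 TPM in 3, inside the range of the WT MK cells. KO NMK cells were at 0 in 7 of 13 cells and at 0.1 or 0.2 TPM in 2 more, and reached 66.9 TPM in B1-5 and 19.7 TPM in 3B. The means were 6.49 ± 0.79 (SD, n = 6) in WT MK, 6.43 ± 1.40 (SD, n = 5) in KO MK, 2.37 ± 2.43 (SD, n = 9) in WT NMK and 1.08 ± 1.96 (SD, n = 13) in KO NMK cells. The MK means lay above the NMK means by more than any of these SDs, and within MK or NMK cells the genotypes lay within their spread. Among libraries that the authors left out, Mycn was at 0.1 TPM in KO MK 1, with a housekeeping score of 8.63 and Pf4 at 43254.3 TPM. It was at 137.4 TPM in KO NMK B1-1a, with a score of 10.1. The other left-out KO MK libraries had 0 to 34.6 TPM, left-out WT MK libraries 0 to 55.8 TPM and the other left-out NMK libraries 0.

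Myc varied most between cells of a group. WT NMK cells had 0 to 71.3 TPM (median 19.2) and WT MK cells 3.8 to 31.2 TPM (median 9.1). KO NMK cells ran from 0 in 4 cells to 383.2 TPM in 1A (median 8.7). KO MK cells had 0 in 1B and 1A, 1.9 TPM in B1-3, 12.2 TPM in 2 and 194.5 TPM in B1-4, so the 3 cells with high Pf4 lay below every WT MK cell and the pair with low Pf4 did not. Because the 2 kinds of KO MK cell lie so far apart, their common mean of 2.57 ± 3.20 (SD, n = 5) describes neither. The other means were 3.63 ± 1.02 (SD, n = 6) in WT MK, 3.48 ± 2.67 (SD, n = 9) in WT NMK and 3.34 ± 2.96 (SD, n = 13) in KO NMK cells.

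Which of the MYC genes was higher in a cell differed by cell kind. Mycn was above Myc in 6 of 6 WT MK cells and in 4 of 5 KO MK cells, all 3 with high Pf4 among them. In WT NMK cells Mycn was higher in 4, Myc in 4, and both were at 0 in 1 cell. In KO NMK cells Mycn was higher in 3, Myc in 7, and both were at 0 in 3. The summed level of the 2 genes was 48.5 to 191 TPM in WT MK (median 130.4) and 29.5 to 278.1 TPM in KO MK cells (median 185.7), against medians of 19.2 TPM in WT NMK and 8.9 TPM in KO NMK cells. In the 3 KO MK cells with high Pf4 nearly all of it was Mycn, since their sum was 78.3 to 208.9 TPM and Myc at most 1.9 TPM.

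**Figure D3:**
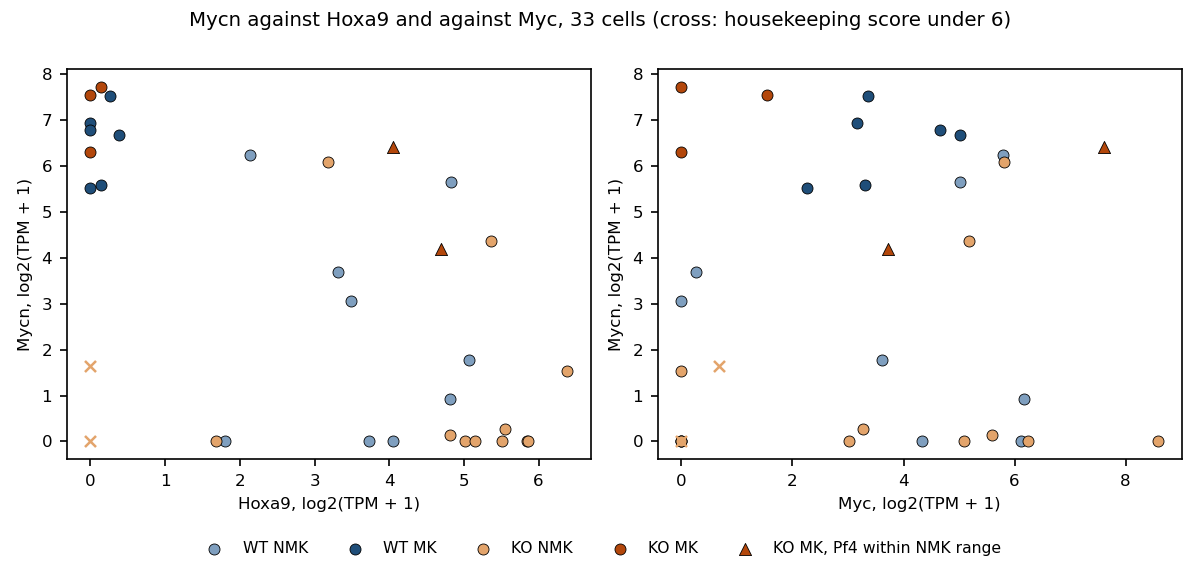
Mycn (vertical axis) against Hoxa9 (left) and Myc (right), log2(TPM + 1), 1 point for each of the 33 cells, coloured by group. The MK cells with high Pf4 form a cluster with Mycn at 44.7 TPM or more and Hoxa9 at 0.3 TPM or less, NMK cells spread along the Hoxa9 axis, and the KO MK cells of that cluster lie left of the WT MK cells on the Myc axis.

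Erg and Fgd5 were, like Mecom, low or at 0 in most cells. Erg, an ETS factor needed for stem cell maintenance, reached 7 TPM at most, in KO NMK B1-5. KO NMK cells had 0 to 7 TPM (median 2.4), WT NMK cells 0 to 2.4 TPM (median 0.8), and WT MK cells 0.1 to 0.3 TPM. KO MK cells had 1.4 TPM in B1-4, 1.1 TPM in 2 and 0 in the other 3. The means were 1.41 ± 1.15 (SD, n = 13) in KO NMK, 0.80 ± 0.59 (SD, n = 9) in WT NMK, 0.47 ± 0.64 (SD, n = 5) in KO MK and 0.26 ± 0.13 (SD, n = 6) in WT MK cells, with neighbours within the larger SD. Fgd5 was listed at 0 in 6 of 9 WT NMK and 11 of 13 KO NMK cells and reached 1 TPM in 5 cells of the 33, with 34.9 TPM in WT NMK 1B, 15.4 TPM in WT NMK 4B, 9.5 TPM in KO NMK B1-5, 5.5 TPM in KO MK B1-4 and 1.1 TPM in WT NMK 3. It was listed at 0 in all 6 WT MK cells and in the 3 KO MK cells with high Pf4. Both genes are also active in endothelial cells, and of 13 endothelial markers 9 were above 0 in at least 1 KO MK cell and 11 in at least 1 cell of each other group, with Cdh5 at 0 in all 33. The summed level of the 13 markers was 30.3 to 189.4 TPM in WT NMK, 15.1 to 48.7 TPM in WT MK, 6.2 to 350.4 TPM in KO NMK and 35.3 to 72.5 TPM in KO MK cells. Without the pair of low housekeeping score, KO NMK cells had 9 of the 13 above 0 and a sum of 62.2 to 350.4 TPM. In WT NMK cells Egfl7 and Tie1 had the highest means of the 13, at 67.6 and 21.3 TPM.

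In wild-type cells, MK cells had little or no Hoxa9 and Hlf and more Mycn than NMK cells. Of the 8 members whose mean reached 1 TPM in at least 1 of the groups, 1 was called higher in MK cells, against 37.4% of 11562 genes, and 4 were called lower, against 5.22%. The median difference of the 8 was -0.44, and that of all these genes was 0.70. Mycn was higher by 4.13 (pooled SD 1.97), while Meis1 differed by 0.70 (pooled SD 1.10), Mllt3 by 0.40 (pooled SD 1.18) and Myc by 0.15 (pooled SD 2.19). Hoxa9 differed by -3.56 (pooled SD 0.91) and was the only member whose groups did not overlap, which held downwards for 0.528% and upwards for 4.58% of genes. Hlf differed by -2.58 (pooled SD 1.70), Fgd5 by -1.14 (pooled SD 1.58) and Mecom by -1.03 (pooled SD 1.12), the last 2 by less than their SD. Mecom fell short of 1 without WT NMK 2, 2B or 4A (-0.66, -0.996 and -0.87), and Fgd5 without WT NMK 1B or 4B (-0.64 and -0.78). Erg, at under 1 TPM in both groups, differed by -0.55 (pooled SD 0.47). With the full table, which adds the libraries left out as outliers, Mycn differed by 2.22, Meis1 by -0.41 and Myc by -0.56. Within the libraries without a title prefix, which include all WT NMK cells, Hoxa9 differed by -3.53, Hlf by -2.54 and Mycn by 4.04.

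Genes that work with the members were counted by lists. In WT these counts are read against the 37.4% of genes called higher, the 5.22% called lower and the median of 0.70. Of 13 HOX genes and TALE cofactors tested in WT, 3 were called higher and 6 lower (median -0.61). Hoxa10 and Hoxa7, neighbours of Hoxa9 in the cluster, differed by -2.63 (pooled SD 2.20) and -2.51 (pooled SD 2.05). Of 26 MYC growth targets, 17 were called higher and 0 lower (median 1.15), with the transferrin receptor gene Tfrc at 4.57 (pooled SD 1.26) and the spermidine synthase gene Srm at 2.67 (pooled SD 2.15). Of 9 partners and rivals of MYC for dimers, 3 were called higher and 0 lower (median 0.87), also near the share of all genes. Of 13 elongation and MLL complex partners of MLLT3, 5 were called higher and 0 lower (median 0.71), a share near that of all genes, with Ell2 at 2.92 (pooled SD 1.42) and Paf1 at 2.74 (pooled SD 1.83). Of 11 ETS factors, 2 were called higher and 2 lower (median 0.66), among them Elf1 at 1.66 (pooled SD 1.12) and Spi1, the factor of myeloid and lymphoid fates, at -2.94 (pooled SD 1.48). Of 7 factors that share stem cell enhancers with ERG, a list that includes Runx1, 4 were called higher and 0 lower (median 1.19). Among them were Runx1 itself at 1.79 (pooled SD 1.36) and Gata2 at 1.37 (pooled SD 1.64). Of 16 other stem cell regulators, 6 were called higher and 3 lower (median 0.29), with the polycomb gene Bmi1 at 2.73 (pooled SD 1.24) and Kit at -2.46 (pooled SD 1.34). Mitosis markers also moved with the cell kind, with 13 of 15 called higher and 0 lower (median 1.85) and a summed level of 876.6 to 2174.3 TPM in MK against 19.8 to 1877.6 TPM in NMK cells. Their part in these counts, and that of the larger number of genes above 0 in MK cells, was not tested.

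In knockout cells the same members led. With all cells the spread was wider than in WT for Hoxa9 and Hlf but not for Mycn. Of 8 members, 1 was called higher in MK cells (Mycn, against 34.2% of 13365 genes) and 2 lower (Hlf and Hoxa9, against 3.84%). The median difference was -0.28, against 0.59 over all genes. Mycn was higher by 5.35 (pooled SD 1.84), Hoxa9 differed by -2.41 (pooled SD 2.27) and Hlf by -1.87 (pooled SD 1.97). Erg differed by -0.94 (pooled SD 1.05) and Myc by -0.77 (pooled SD 3.02). No member's groups were free of overlap, which held upwards for 0.299% and downwards for 0.015% of genes. Without the KO NMK pair of low housekeeping score, 1 of 9 members was called higher (26% of 12223 genes) and 4 lower (6.97%), with Hoxa9 at -3.17 (pooled SD 1.71), Hlf at -2.49 (pooled SD 1.57), Myc at -1.32 and Erg at -1.18. None was free of overlap then, as were 0.368% of genes upwards and 0.221% downwards. Without the KO MK pair of low Pf4, 1 of 7 was called higher (38.8% of 13206 genes) and 4 lower (6.26%), with Mycn at 6.11 (pooled SD 1.84), Hoxa9 at -4.13 (pooled SD 2.06), Hlf at -3.32 (pooled SD 1.73), Myc at -2.83 (pooled SD 2.76) and Erg at -1.41. Mycn was then free of overlap, as were 4.24% of genes upwards and 0.0303% downwards. With the full table Mycn differed by 3.24, Hoxa9 by -2.55 and Hlf by -2.19. Mllt3 reached 1.01 without KO NMK B1-2a. Myc was at -2.03 without KO MK B1-4, at -1.06 without KO MK 2 and at -1.05 without KO NMK B1-2a, B1-3b, 4A or 4B. Erg was at -1.05 to -1.14 without KO NMK B1-1b, B1-2a, 1A or 3A, or KO MK B1-4 or 2. Among libraries without a title prefix Mycn differed by 5.48, Hoxa9 by -3.26, Hlf by -3.50 and Myc by -3.00, and among B1 libraries, 2 MK and 5 NMK cells, by 5.12, -1.06, 0.66 and 2.67. These B1 cells include the low-Pf4 library MK B1-4, with Hlf at 36 TPM and Myc at 194.5 TPM. The other, MK B1-3, had 0.2 and 1.9 TPM. They also include both NMK libraries of low housekeeping score, B1-1b and B1-2a.

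List counts of the knockout are read against the 34.2% of genes called higher, the 3.84% called lower and the median of 0.59. Counts without the pair of low housekeeping score are read against 26%, 6.97% and 0.36. Those without the pair of low Pf4 are read against 38.8%, 6.26% and 0.65. Of 26 growth targets of MYC, 6 were called higher and 3 lower, with 14 above 0 and 12 below (median 0.037). Without the pair of low housekeeping score 2 were called higher and 8 lower, with 5 above 0 and 21 below (median -0.69, against 0.36 over all genes), and without the pair of low Pf4 7 were called higher and 6 lower (median -0.35). Among dimer partners and rivals of MYC, 3 of 9 were called higher and 0 lower (median 0.50), with Mxd4 at 3.29 (pooled SD 2.12) and Mxd1 at 2.54 (pooled SD 1.68), both repressors that compete with MYC proteins for MAX. Of 15 HOX genes and cofactors, 3 were called higher and 3 lower (median -0.30), with Hoxa7 at -1.90 (pooled SD 2.94) and Hoxb2 at -1.69 (pooled SD 2.28). Of 15 partners of MLLT3, 6 were called higher and 0 lower (median 0.63), like the dimer genes near the share of all genes, with Ell2 at 2.73 (pooled SD 1.98). Of 16 other stem cell regulators, 6 were called higher and 4 lower (median -0.23), with Id2 at 5.56 (pooled SD 2.69) and Gfi1b, a repressor that megakaryocytes and red cells need, at 2.39 (pooled SD 2.49). Of these regulators 5 of 14 were called higher and 5 lower without the pair of low housekeeping score (median 0.14). Mitosis markers were called higher in 3 and lower in 4 of 15 (median 0.035), in 1 and 6 without the pair of low housekeeping score (median -0.80, with 11 below 0), and in 2 and 5 without the pair of low Pf4 (median -0.18). Their part in the counts of growth targets was not tested, and a difference between the genotypes was not tested.

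**Figure D4:**
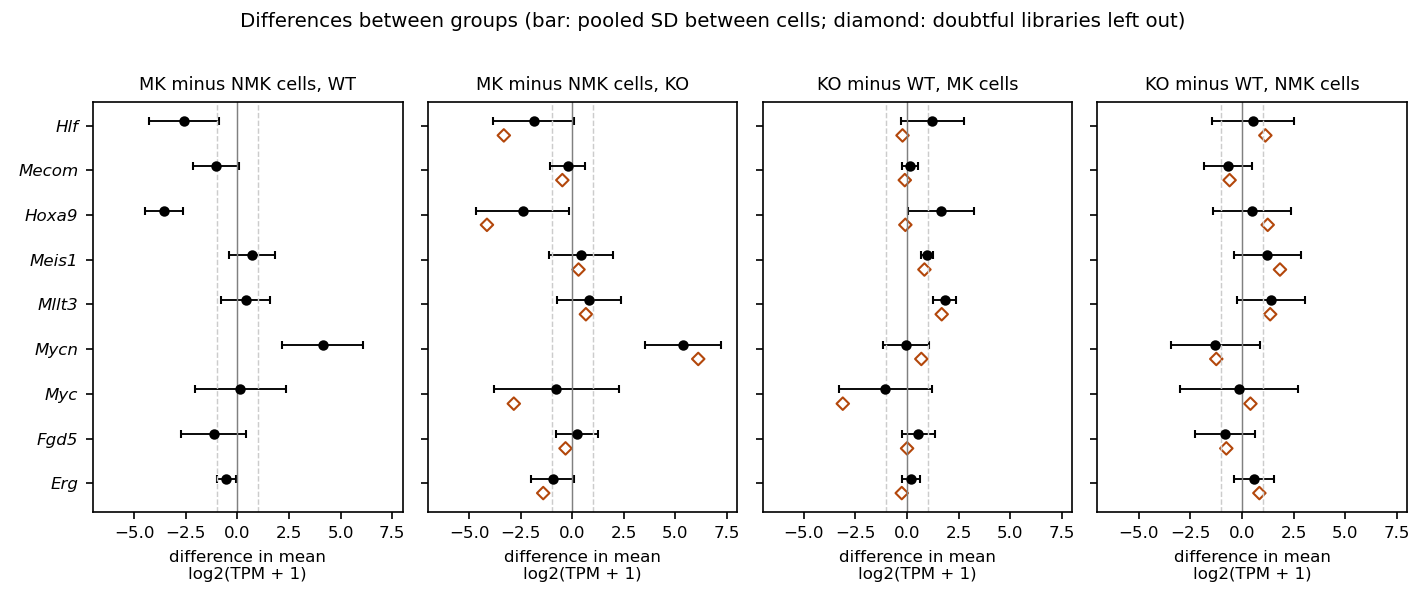
Difference in mean log2(TPM + 1) of each regulator in the 4 comparisons (points) with the pooled SD between cells (bars), and dashed lines at -1 and 1. Diamonds leave out KO MK libraries with Pf4 within the NMK range (the KO panel of MK minus NMK and the MK panel of KO minus WT) or KO NMK libraries of low housekeeping score (the NMK panel). Mycn and Hoxa9 lie farthest from 0 where MK is set against NMK, and the diamonds of Hlf, Hoxa9 and Myc move most where KO is set against WT in MK cells.

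Among MK cells, those labelled KO had higher Mllt3 and Meis1. Of 7 members, 3 were called higher (Hlf, Hoxa9 and Mllt3, against 12.4% of 11796 genes) and 1 lower (Myc, against 9.27%), and the median difference was 0.96, against 0.092 over all genes. Mllt3 was higher by 1.83 (pooled SD 0.56) and Meis1 by 0.96 (pooled SD 0.28), and for both no KO cell overlapped a WT cell, as held upwards for 2.38% of genes and downwards for 1.85%. Without the pair of low Pf4, Mllt3 was higher by 1.68 (pooled SD 0.59) and Meis1 by 0.84 (pooled SD 0.28), again without overlap, as held upwards for 12.6% and downwards for 5.25% of 11345 genes. The near-identical WT MK libraries averaged into 1 gave 1.48 for Mllt3 and 0.98 for Meis1. With the full table they were 1.63 and 1.09. Meis1 passed 1 without WT MK 1 (1.01), KO MK 1B (1.04) or KO MK 1A (1.07). Within libraries without a title prefix Mllt3 was higher by 1.87 and Meis1 by 0.70, and within B1, with 1 WT cell, by 1.26 and 1.39. Mycn differed by -0.064 (pooled SD 1.11), and by 0.69 (pooled SD 0.78) without the pair of low Pf4.

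The calls of Hlf and Hoxa9 in this comparison depended on the pair of low Pf4, while Myc was called lower with and without it. Hoxa9 was higher by 1.64 (pooled SD 1.59) and Hlf by 1.23 (pooled SD 1.51) in KO MK cells, and without the pair they differed by -0.084 and -0.22. Leaving out B1-4 alone gave 1.08 for Hoxa9 and 0.31 for Hlf, and leaving out 2 alone gave 0.92 for Hoxa9. Myc differed by -1.05 (pooled SD 2.27) with all cells and by -3.12 (pooled SD 0.98) without the pair, when no KO cell overlapped a WT cell, as for 5.25% of genes downwards. It was at -2.31 without KO MK B1-4, at -0.85 and -0.78 without WT MK 1 or 4, at -0.41 without KO MK 1B or 1A, and at -0.79 without KO MK B1-3. Within libraries without a title prefix Myc differed by -2.48, and within B1, which holds the low-Pf4 library B1-4 at 194.5 TPM, by 1.40. With 1 of 4 members then called higher and 1 lower, the background was 16.1% higher and 9.58% lower. Surface markers of stem cells were also higher in KO MK cells, with 7 of 9 called higher and 0 lower (median 1.99), against 12.4% and 9.27% of genes. Their summed level was 761.2 to 1738.6 TPM in KO against 208.2 to 435.9 TPM in WT, and 761.2 to 1289.6 TPM in the 3 cells with high Pf4. In those 3 cells Kit and Procr were at 0 and Ly6a at most 0.1 TPM, while Cd34 was at 123.5 to 353.4 TPM. Without the pair of low Pf4, 5 of 7 markers were called higher and 1 lower (median 1.73), against 16.1% and 9.58% of genes. The part of these markers in the members' differences was not tested.

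Of 26 growth targets of MYC, 13 were called lower in KO MK cells, against 9.27% of all genes, and 0 higher, against 12.4%. The differences of all 26 were below 0 (median -0.94, against 0.092 over all genes). Without the pair of low Pf4, 11 were called lower, 0 higher, and 22 were below 0 and 4 above (median -0.98). Of all genes 9.58% were then called lower and 16.1% higher (median 0.20). The serine metabolism gene Shmt1 differed by -2.36 (pooled SD 1.06), Tfrc by -2.01 (pooled SD 2.36) and the nucleolar gene Mybbp1a by -1.65 (pooled SD 0.74). Of the 9 dimer genes, 2 were called higher and 0 lower (median 0.53), Mxd1 at 2.42 (pooled SD 1.18) and Mxd4 at 1.23 (pooled SD 1.16). Of 14 partners of MLLT3, 0 were called higher and 1 lower (median 0.26). Of 8 HOX genes and cofactors, 3 were called higher and 2 lower (median -0.010), with Hoxa7 at 1.64 (pooled SD 2.10), and without the pair of low Pf4 0 of 5 were called. Of 10 ETS factors, 3 were called higher and 0 lower (median 0.22), and also 3 and 0 without that pair (median 0.47).

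Among NMK cells, with all cells, Meis1 and Mllt3 were called higher in KO and Mycn lower, each within its spread. Of 9 members, 2 were called higher, against 12.8% of 12835 genes, and 1 lower, against 13.3%. In a set of 9 these counts are close to those shares. The median difference was 0.49, against 0.20 over all genes. Mllt3 differed by 1.42 (pooled SD 1.64), Meis1 by 1.23 (pooled SD 1.62) and Mycn by -1.29 (pooled SD 2.16), while Hlf differed by 0.52 (pooled SD 1.99) and Hoxa9 by 0.49 (pooled SD 1.88). No member was free of overlap, as held for 0% of genes upwards and 0.0545% downwards. Without the pair of low housekeeping score, 4 members were called higher, against 24.1% of 11732 genes, and 1 lower, against 7.62%. Meis1 was then higher by 1.84 (pooled SD 1.18), more than the SD between cells, with Mllt3 at 1.37 (pooled SD 1.58), Hoxa9 at 1.25 (pooled SD 1.27), Hlf at 1.14 (pooled SD 1.70) and Mycn at -1.24 (pooled SD 2.26). The groups of every member still overlapped, with 0.136% of genes free of overlap upwards and 0.0682% downwards. Mycn was at -0.88 without WT NMK 3 and at -0.81 without WT NMK 4B, Meis1 at 0.90 without WT NMK 1A, and Fgd5, at -0.82 with all cells, was at -1.07 without KO NMK B1-5. Within libraries without a title prefix Meis1 differed by 1.62, Hlf by 1.34, Hoxa9 by 1.17, Mllt3 by 0.97 and Mycn by -1.77.

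Other genes moved with the same libraries. Of all genes 12.8% were called higher and 13.3% lower (median 0.20). Without the pair of low housekeeping score it was 24.1% higher and 7.62% lower (median 0.36). Mitosis markers were called higher in 11 of 15 and lower in 0 in KO NMK cells (median 1.91), and in 15 of 15 without the pair of low housekeeping score (median 2.47), with a summed level of 584.2 to 4937.6 TPM in those 11 KO cells and 19.8 to 1877.6 TPM in WT. Housekeeping genes, of which 0 were called higher and 4 lower among 15 with all cells, were called higher in 6 and lower in 0 without that pair (median 0.70). Their part in the higher values of Meis1, Mllt3, Hlf and Hoxa9 was not tested. Of 26 growth targets of MYC, 4 were called higher and 2 lower (median 0.53), and 13 higher and 0 lower without that pair (median 0.96), with Mybbp1a and Bop1 both at 2.54 (pooled SD 2.34 and 1.78) with all cells. Of 16 HOX genes and cofactors, 1 was called higher and 3 lower (median -0.27), with Hoxa2 at -1.86 (pooled SD 2.39), Hoxa5 at -1.62 (pooled SD 2.13) and Hoxa7 at 1.03 (pooled SD 2.76). Of 13 partners of MLLT3, 3 were called higher and 0 lower (median 0.59), among them Ccnt1 and Paf1 at 1.91 (pooled SD 1.88 and 2.72).

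Some members shared cells more than others. All 18 cells with Hlf at 1 TPM or more also had Hoxa9 and Meis1, while 4 cells had Hoxa9 without Hlf. All 8 cells with Mecom had Hoxa9 and Meis1, and all 5 with Fgd5 had Hlf, Hoxa9, Meis1 and Myc. Meis1 was at 1 TPM or more in 31 of the 33 cells. Hoxa9 was at that level in all 9 WT NMK cells and all 11 KO NMK cells with a housekeeping score of 6 or more. Sharing a cell with Hoxa9 or Meis1 therefore says little about a member. Hoxa9 and Mycn were together in 10 cells, 12 had only Hoxa9 and 10 only Mycn. Spearman's rho between Hoxa9 and Mycn was -0.54 over all 33 cells and -0.19 over the 20 NMK cells with a housekeeping score of 6 or more, and between Hoxa9 and Meis1 it was 0.38 and 0.46. Mycn and Myc had 0.06 over those 20 cells, and Mycn with Hlf and Mecom 0.51 and 0.53. Over the same 20 cells rho with Hoxa9 was -0.13 for Hlf, -0.24 for Mecom and -0.36 for Fgd5. With Meis1 it was 0.34 for Hlf, -0.35 for Mecom and 0.18 for Fgd5. These values describe cells that share their groups and libraries.

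For each member at 1 TPM or more in at least 8 cells, the 3 genes of most similar rank over the 33 cells were taken among 9014 genes. Hlf was most like the interferon-inducible GTPase genes Tgtp2 (rho 0.81) and Tgtp1 (0.80) and Spi1 (0.80). Hoxa9 was most like Selplg, the P-selectin ligand gene (0.82), the serine synthesis gene Phgdh (0.82) and the actin-bundling gene Lcp1 (0.81). Meis1 was most like Gna12, Mtmr3 and Faf1 (0.83 each), and Mllt3 was most like Polr2b, a subunit of RNA polymerase II (0.71), Mcmbp (0.71) and Klf6 (0.68). Mycn was most like Acss2os (0.85), Engase (0.83) and Zscan29 (0.82). Mecom was most like Tmem154 (0.75), Trim14 (0.63) and Nop14 (0.62), Myc was most like Abhd15, Mnda (0.70 each) and Ifi205 (0.69), and Erg was most like Bnip3 (0.74), the intermediate filament gene Vim (0.69) and Ctsh (0.66). Without the 2 libraries of low housekeeping score rho was 0.78 for Tgtp2, 0.79 for Selplg, 0.81 for Gna12 and 0.85 for Acss2os. Fgd5, with 5 such cells, was not ranked. Some of the named genes were near the floor, with Engase, Zscan29 and Mnda at group means of at most 2.72, 3.08 and 0.62 TPM. The number of genes above 0 was larger in MK than in NMK cells, and its part in these ranks was not tested.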

How the data were processed

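Single-cell SMART-Seq libraries were made from cultured CD41-positive stem cells, per the labels. The authors deposited TPM per gene, rounded to 1 decimal, for 46 libraries and for 33 without outliers. The submitters' processing notes name the build mm10 and the tools STAR 2.6.1e, featureCounts 1.6.2, cutadapt 1.9.1 and FastQC 0.11.7. How outliers were chosen, the annotation and the strand setting are not given in the sources used. Columns were matched to samples by the labels, and 1 column that matched none was not used.

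Values were compared as log2(TPM + 1), a pseudocount of 1, which understates differences of low genes. Genes whose mean reached 1 TPM in at least 1 of the 2 groups formed the background. Positions came from GENCODE M21 and promoters from RefSeq. Lists of partner genes (9) and of markers (10) were fixed by hand, and examples are up to 3 members per list with the largest difference at a mean of 10 TPM or more, picked further for brevity. All 9 members are named. The members and lists were chosen with earlier results of these data known. Exact Clopper-Pearson 95% intervals cover counting error only. Alternatives were the full table, pseudocounts of 0.1 and 10, ratios of means, medians, rescaling, filters, libraries left out and title prefixes. Those without KO MK libraries of low Pf4 were added after seeing the data. The script was tested on simulated data. Computing used matplotlib 3.10.9, scipy 1.17.1, pandas 2.3.3, numpy 2.4.6 and Python 3.11.15. Some genes of the lists are not reported here by name.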

Additional observations from a re-analysis of the deposited data

Results flagged for a closer look

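Each member in each group of 4 to 10 cells was searched for a cell far from the rest. Chance marks about 1 search in 20 for normally distributed values, and values often at 0 are not, so the chance rate here is unknown. In 26 searches 3 such values were found, all in the same library, KO MK B1-4. It had Mecom at 1.5 TPM (next highest KO MK cell 0.2 TPM), Mllt3 at 17.4 TPM (next 11.5 TPM) and Fgd5 at 5.5 TPM (the other 4 at 0). With the other 4 at 0, any Fgd5 value above 0 would have been marked. This library also had Pf4 within the NMK range.

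Among the 7 KO libraries that the authors left out of the table without outliers, some values lay above every WT cell of the same kind, left-out WT libraries included. KO MK 1 had Meis1 at 17.5 TPM (highest WT MK cell 10.8 TPM) and Mllt3 at 21.4 TPM (10.6 TPM), with a housekeeping score of 8.63 and Pf4 at 43254.3 TPM, while its Mycn was 0.1 TPM and its Myc 0. KO MK B1-1, with a score of 6.57, had Hoxa9 at 1 TPM (0.4 TPM). KO NMK 5A had Mllt3 at 13.8 TPM (highest WT NMK cell 8.3 TPM) with a score of 1.16. KO NMK B1-1a had Mycn at 137.4 TPM (74.7 TPM) with a score of 10.1.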

How the results depend on the processing

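No paired analysis was possible because the results come from no test and the replicate numbers of single cells name no shared animal. Leaving out 1 cell at a time moved each of 594 recomputed member differences by less than 1 SD between cells. In groups of these sizes 1 cell cannot move a difference by a whole pooled SD, so this says nothing about stability. The other alternatives moved 350 of 378 by less than 1 SD, which does not mean that the sign held. The count of members called, 5 for MK against NMK cells in WT, was 8 with a pseudocount of 0.1 and 2 with 10. For the same contrast in KO it was 3, and 6 with a pseudocount of 0.1 or only libraries without a title prefix. It was 5 there by medians, without low housekeeping scores, without low-Pf4 KO MK libraries, and without both. For KO against WT in MK cells it was 4, and 0 with a pseudocount of 10, and 2 by medians, without low-Pf4 libraries and with the WT MK libraries averaged as well. For KO against WT in NMK cells it was 3, and 5 with a pseudocount of 0.1, by medians, without low housekeeping scores and only without a prefix, 6 by the ratio of means and 0 with a pseudocount of 10. Leaving out each cell gave 4 to 5, 3 to 6, 3 to 4 and 2 to 4.

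Signs turned in 19 of the 594 and 43 of the 378. Of these, 8 belonged to differences of 1 or more, listed next. Those were Hlf in KO MK against NMK cells within prefix B1 (0.66) and, for KO against WT in MK cells, Myc by the ratio of means (1.49) and within B1 (1.40) and Hlf by medians (-0.058). Without low-Pf4 libraries Hlf was -0.22 and Hoxa9 -0.084, and -0.16 and -0.036 with the WT MK libraries averaged as well. The others turned from a main size of at most 0.81. Among them, for MK against NMK cells in WT, Myc went from 0.15 to -0.56 with the full table, -0.32 with a pseudocount of 10, -0.95 by the ratio of means and -1.0 by medians, Mllt3 from 0.40 to -0.043 by the ratio of means and Meis1 from 0.70 to -0.41 with the full table, where Mycn fell from 4.13 to 2.22. The cause was not tested. With no WT NMK cell in prefix B1, comparisons with that group could not be run there. Few cells, unknown depth and values listed at 0 limit all results.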

Other observations

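Slamf1, the SLAM family receptor gene used to sort stem cells, was listed at 0 in all 9 WT NMK cells, at 0 to 15.2 TPM in WT MK cells (median 4.7) and at 5.9 to 309.8 TPM in the 5 KO MK cells (median 47.2), while 1 of 13 KO NMK cells reached 1 TPM, at 23.6 TPM. Ly6a, which encodes the stem cell surface protein Sca-1, had the opposite order in WT, at 0.2 to 662.7 TPM in NMK cells (median 328.1) and at most 1.1 TPM in MK cells. Procr, the gene of the endothelial protein C receptor, reached 1 TPM in 6 of 9 WT NMK, 0 of 6 WT MK, 6 of 13 KO NMK and 2 of 5 KO MK cells.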
